A study of Mus musculus with 12 samples.

Results

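The genes for active DNA demethylation in newborn mouse germ cells were compared between Morc1 knockout and heterozygous animals. The set holds 6 of the 35666 genes in the deposited gene table, chosen by name: the 3 TET dioxygenases Tet1, Tet2 and Tet3, the thymine DNA glycosylases Tdg and Mbd4, and the cytidine deaminase Apobec1. Male germ cells (gonocytes) came from the testes of mice that carried the Mvh-Venus transgene, a fluorescent reporter driven by the germ cell gene Mvh (Ddx4), and both genotypes carried it. The het group was Morc1 (+/-) and the knockout (KO) group Morc1 (-/-), both at postnatal day 0, with 3 RNA-seq libraries each, and no wild-type group is among them. Of the 12 samples in the labels, these 6 were used; the samples from P3 were not analysed here. Nothing in the labels says whether the replicates of a group came from separate animals, so p-values measure only the spread between these samples.

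TET enzymes oxidise methylated cytosine to hydroxymethylcytosine and then to formylcytosine and carboxylcytosine. Thymine DNA glycosylase cuts out the last pair of these bases, and base excision repair fills the gap with unmodified cytosine. A proposed second route starts with deamination of methylated cytosine to thymine, after which TDG or MBD4 removes the thymine. The germ line loses most of its DNA methylation in the embryo and regains it in male gonocytes before and around birth. MORC1 is a germ cell ATPase with a role in silencing transposable elements (TEs).

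The gene table gives read counts divided by one size factor per library, here called normalized counts, and the TE table gives the same for single TE copies. Values of a group are listed in the order of its replicates, 1 to 3. The libraries held between 28363683 and 32816861 gene reads and between 1974504 and 3703419 TE reads. Morc1 itself was lower in every KO library (1360, 1343 and 1794 normalized counts) than in every het library (7248, 7485 and 4126). The germ cell marker Ddx4 lay between 17605 and 31038 normalized counts and Dazl between 48158 and 72571. Libraries did not group by genotype over genes: KO replicate 1 was closest to het replicates 2 and 1, and het replicate 3 and KO replicate 2 were closest to each other. That pair was therefore also left out together, a setting chosen after seeing the data.

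The start regions of 3 of the genes are shown because a measured feature lies at each of them. They are read from the windows before the RefSeq transcript start (GRCm38.p6), without bases that lie in annotated exons, on the gene's strand, with each CG dinucleotide in capitals. For Apobec1 the stretch is chr6:122602445-122602694, which lies wholly inside a TE copy. For Mbd4 it is the gap chr6:115853372-115853469, bounded on its far side by the oppositely oriented gene Ift122. For Tet2 it is chr3:133544391-133544640, close to the start of the antisense gene Gm42567.
Apobec1: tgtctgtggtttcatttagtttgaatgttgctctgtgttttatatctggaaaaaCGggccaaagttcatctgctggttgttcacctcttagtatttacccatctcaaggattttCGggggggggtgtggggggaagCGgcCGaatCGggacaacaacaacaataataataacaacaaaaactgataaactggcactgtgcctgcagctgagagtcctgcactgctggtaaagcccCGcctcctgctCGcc
Mbd4: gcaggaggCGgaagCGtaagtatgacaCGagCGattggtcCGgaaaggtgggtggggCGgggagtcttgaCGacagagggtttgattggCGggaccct
Tet2: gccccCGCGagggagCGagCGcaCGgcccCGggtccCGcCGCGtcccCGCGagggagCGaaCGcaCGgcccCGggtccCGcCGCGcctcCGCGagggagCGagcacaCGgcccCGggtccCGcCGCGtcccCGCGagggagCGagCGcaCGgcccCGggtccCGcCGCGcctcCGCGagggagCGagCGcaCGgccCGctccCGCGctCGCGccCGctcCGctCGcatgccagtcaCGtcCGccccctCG
CG was counted in the 250 bases before the start of 32851 RefSeq promoter windows, where the median was 6 (quartiles 2 and 16). Tet2 had 51, a count that only 0.067% of windows reached. Apobec1 had 7, which 46.3% of windows reached. The other genes had 15 (Tet1), 17 (Tet3), 19 (Tdg) and 22 (Mbd4). The windows of Tet1 (chr10:62887325-62887574), Tet3 (chr6:83441679-83441928) and Tet2 lie inside the gene spans given below. For these genes the window therefore does not precede the outermost annotated start.

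None of the 6 genes passed the test between genotypes. The test was limma on log2(normalized count + 1) over the 26005 genes with a mean of at least 10, with Benjamini-Hochberg adjustment over all of them and a call at an adjusted p under 0.05. All 6 genes were among those tested, and limma called 0 of 6, against 0.473% of all tested genes (0.431% higher and 0.0423% lower in KO). The count tests edgeR and DESeq2 called 0 of 6 as well, against 0.496% and 1.79% of tested genes, and 0 of 6 had an unadjusted limma p under 0.05, against 6.86% of tested genes. The 95% intervals of the 6 genes together span 0.520-fold to 1.92-fold. With het replicate 3 and KO replicate 2 left out together, the log2 fold changes (KO minus het) were -0.40 for Tet1, -0.17 for Tet2, 0.25 for Tet3, -0.22 for Tdg, 0.36 for Mbd4 and -0.07 for Apobec1, with limma adjusted p of 0.557 or more.

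Tet1 (ENSMUSG00000047146, chr10:62804570-62908996, minus strand) encodes the TET enzyme with a CXXC domain that is known from embryonic stem cells and primordial germ cells. The het libraries had 1186, 1027 and 1334 normalized counts and the KO libraries 898, 1282 and 775. The lowest values were in KO replicates 3 and 1, while KO replicate 2 stood with the het libraries, so the groups overlapped. The means were 1182 ± 154 and 985 ± 265 (SD, n = 3). The log2 fold change (KO minus het) was -0.29 with a standard error of 0.25, a 95% interval of -0.85 to 0.28 and a limma adjusted p of 0.898.

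Tet2 (ENSMUSG00000040943, chr3:133463679-133545139, minus strand), the TET enzyme without a CXXC domain, had 836, 746 and 965 normalized counts in het and 959, 620.0 and 515 in KO. KO replicate 1 sat near the top of the het range and KO replicates 2 and 3 sat below it. The log2 fold change of Tet2 was -0.32 (SE 0.28, 95% interval -0.94 to 0.29, limma adjusted p = 0.896).

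Tet3 (ENSMUSG00000034832, chr6:83362373-83459084, minus strand), the TET enzyme known from the oocyte and zygote, split the libraries across genotypes. Its normalized counts were 1047, 1052 and 2179 in het, against 1371, 2198 and 1143 in KO. Het replicate 3 and KO replicate 2 were well above all the others, and the highest library had 2.1 times the lowest. Its within-group SD on the log2 scale was 0.55, the widest of the 6 genes and above the upper quartile of 0.52 over 11571 genes with a mean of 100 to 2000. A log2 fold change of 0.17 was fitted for Tet3 (SE 0.34, 95% interval -0.59 to 0.94, limma adjusted p = 0.961), and with KO replicate 2 left out it was -0.10.

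The glycosylase gene Tdg (ENSMUSG00000034674, chr10:82629828-82650799, plus strand) had 900.2, 803 and 476 normalized counts in het against 782, 654 and 685 in KO. The KO libraries lay close together, inside the wide het range that het replicate 3 opened downwards. For Tdg the log2 fold change was 0.01 (SE 0.28, 95% interval -0.62 to 0.64, limma adjusted p = 0.997). Without het replicate 3 it was -0.27.

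Mbd4 (ENSMUSG00000030322, chr6:115840697-115853371, minus strand) encodes a glycosylase that also binds methylated CpG. It was the only one of the 6 genes whose groups did not overlap. The het libraries had 560, 609 and 548 normalized counts and the KO libraries 663, 713 and 850. The KO mean of 742 ± 97.1 was 1.30 times the het mean of 572 ± 32.6 (SD, n = 3). So 1 of 6 genes had every KO library above every het library, as did 7.17% of all tested genes, and 0 of 6 had every KO library below, against 5.57%. The fitted log2 fold change was 0.37 (SE 0.23, 95% interval -0.14 to 0.88), with a limma adjusted p of 0.848 and an exact two-sided permutation p of 0.1, the smallest that 3 against 3 allows. Across 17 other settings the value stayed between 0.27 and 0.44 and the smallest adjusted p was 0.604.

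Apobec1 (ENSMUSG00000040613, chr6:122577792-122602444, minus strand), the deaminase that edits apolipoprotein B mRNA, had the lowest normalized counts of the set. It had 140.2, 165 and 87.8 normalized counts in het and 129, 104 and 163 in KO. Its lowest libraries were het replicate 3 and KO replicate 2, the same pair in which Tet3 was highest. Its log2 fold change was 0.03 (SE 0.36, 95% interval -0.76 to 0.83, limma adjusted p = 0.993). With het replicate 3 left out it was -0.23, and with KO replicate 3 left out -0.13.

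**Figure D1:**
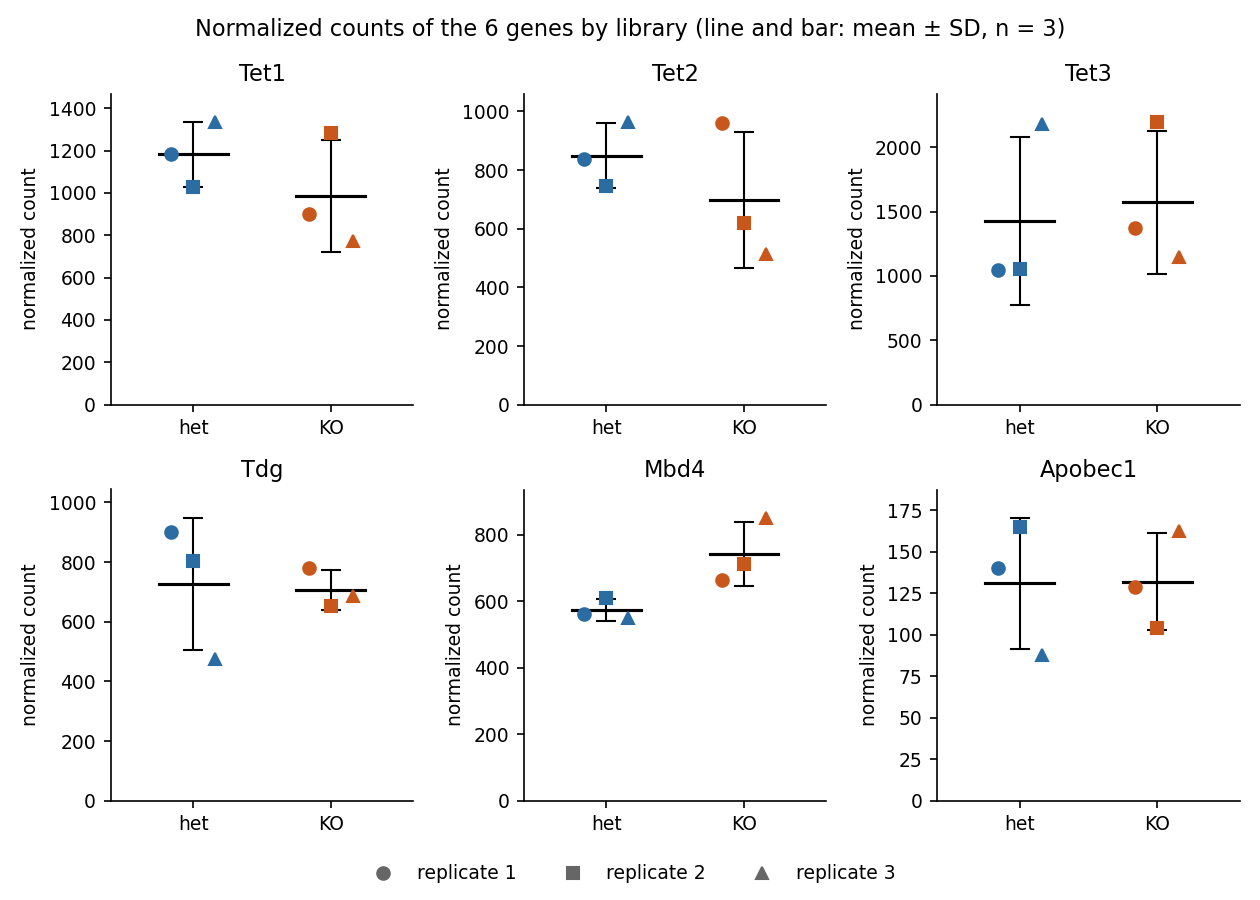
Normalized count (linear axis from 0) of each of the 6 genes in each library; symbols give the replicate, the line the group mean and the bar ± SD (n = 3). The KO points lie above all het points for Mbd4 alone, and for Tet3 het replicate 3 (2179) and KO replicate 2 (2198) stand above the rest.

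Levels were compared between genes per kilobase of merged exons. In the het libraries the order of the means was Tdg (135), Mbd4 (108), Tet3 (85.4), Tet1 (76.5), Tet2 (50.3) and Apobec1 (48.5 normalized counts per kb). Tet1 was above Tet2 in every het library without overlap of their ranges, while every other pair of neighbours in that order overlapped. In the KO libraries the order was Mbd4 (140.6), Tdg (131.5), Tet3 (94.1), Tet1 (63.7), Apobec1 (48.8) and Tet2 (41.4), and all neighbours overlapped. The glycosylase genes lay near the middle of the 17653 protein-coding genes tested: 51.2% of these had a lower level per kb than Tdg, and 49.5% had a lower one than Mbd4. Tet3 had 41.4% of them below it, Tet1 36.2%, Apobec1 28.5% and Tet2 27.4%.

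RNA of the DNA methylation genes was mostly at a higher level per kb, and protein was not measured. Dnmt3l and Dnmt3a, the cofactor and the enzyme of de novo methylation, had means of 1530 and 1329 normalized counts per kb over the 6 libraries, and the maintenance genes Dnmt1 and Uhrf1 had 817 and 743. Dnmt3c, the rodent methyltransferase for young retrotransposons, had 274. Dnmt3b, at 106, lay between Mbd4 (124) and Tet3 (89.7).

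**Figure D2:**
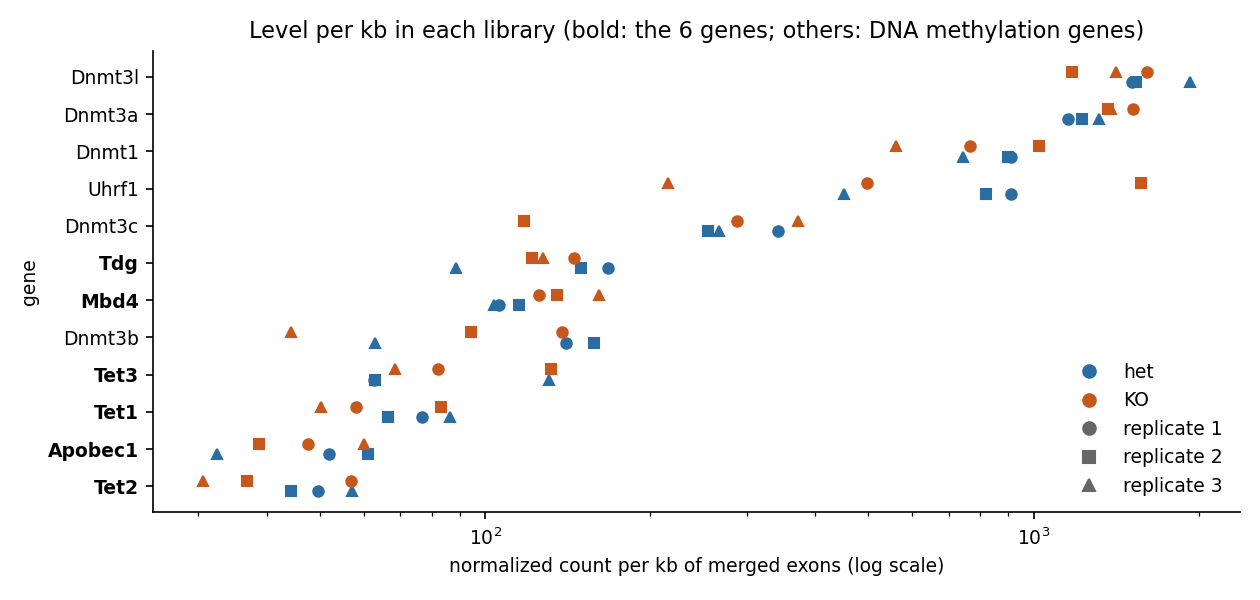
Normalized count per kb of merged exons (log axis) in each library for the 6 genes (bold names) and 6 DNA methylation genes; colour gives the genotype and symbol the replicate. Dnmt3l, Dnmt3a, Dnmt1 and Uhrf1 lie to the right of all 6 genes in every library.

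The 3 TET genes were also compared as shares of their sum per kb. The sum was 212 ± 54.1 in het and 199 ± 51.1 normalized counts per kb in KO libraries (SD, n = 3), with overlapping ranges. Tet3 made up 33.2%, 36.3% and 47.6% of it in het against 41.7%, 52.4% and 45.9% in KO. Tet1 made up 40.6%, 38.3% and 31.5% in het against 29.5%, 33.0% and 33.6% in KO. Tet1 was thus the larger share in het replicates 1 and 2, and Tet3 in het replicate 3 and all KO libraries.

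The genes whose profiles over the 6 libraries were most like each member were found among 15471 protein-coding genes with a mean of at least 50. For Tet3, Fyb had a Pearson r of 0.998 over the 6 libraries, on log2(normalized count + 1). Tet1 was closest to Tst (0.995) and Iqsec1 (0.993), and Tet2 to Prdm11 (0.987) and Ankrd13d (0.985). Tdg was closest to Fdxacb1 (1.000) and Wwp2 (0.991), Mbd4 to Tbx20 (0.998) and Slc25a46 (0.996), and Apobec1 to Washc1 (0.999) and Zfp879 (0.994). The values rest on 6 points that share library-wide differences and are a description only. Between 30 genes (Tet2) and 133 genes (Tet3) of the 15471 reached an r of 0.95 with a given member.

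Some reads of the set may not be separable from those of other genes, since how strand and multiply matching reads were handled is not given in the sources used here. The longest Tdg transcript matched the processed pseudogene Tdg-ps at 98.7% identity over 84.8% of its length. Tdg-ps had 10.7 to 24.8 normalized counts over the 6 libraries, and the shorter copies Gm9855 and Gm5597 had 23.8 to 43.5 and 6.2 to 23.7. Tdg also shares 367 exonic bases with Glt8d2 on the other strand, and Mbd4 shares 264 with the antisense gene Gm44206, which had at most 13.9 normalized counts.

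The antisense gene at the Tet2 start was higher in KO libraries by the values, without passing the limma test. Gm42567 (ENSMUSG00000105085, chr3:133545097-133585053, plus strand) is annotated as an antisense RNA that begins inside the outermost annotated exon of Tet2, with 43 exonic bases in common. It came up as a gene that overlaps a member and is described with its values known. The het libraries had 23.8, 32.8 and 23.4 normalized counts and the KO libraries 132.6, 81.6 and 115.6, so every KO library was above every het library. The KO mean of 109.9 ± 25.9 was 4.12 times the het mean of 26.7 ± 5.33 (SD, n = 3). In the fit its log2 fold change was 1.99 (SE 0.41, 95% interval 1.08 to 2.90), with an adjusted p of 0.0861 by limma, 0.0877 by edgeR and 0.0014 by DESeq2. Of its 3 exons only the first, of 81 bases, lies at Tet2, and which exon gave the reads was not tested.

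At the other paired start, Ift122, an intraflagellar transport gene that begins just beyond the Mbd4 gap printed above, had 3919, 3234 and 2075 normalized counts in het and 3947, 1854 and 3481 in KO. Its log2 fold change was -0.02 (SE 0.33, limma adjusted p = 0.996). Unlike Mbd4, its groups overlapped throughout.

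**Figure D3:**
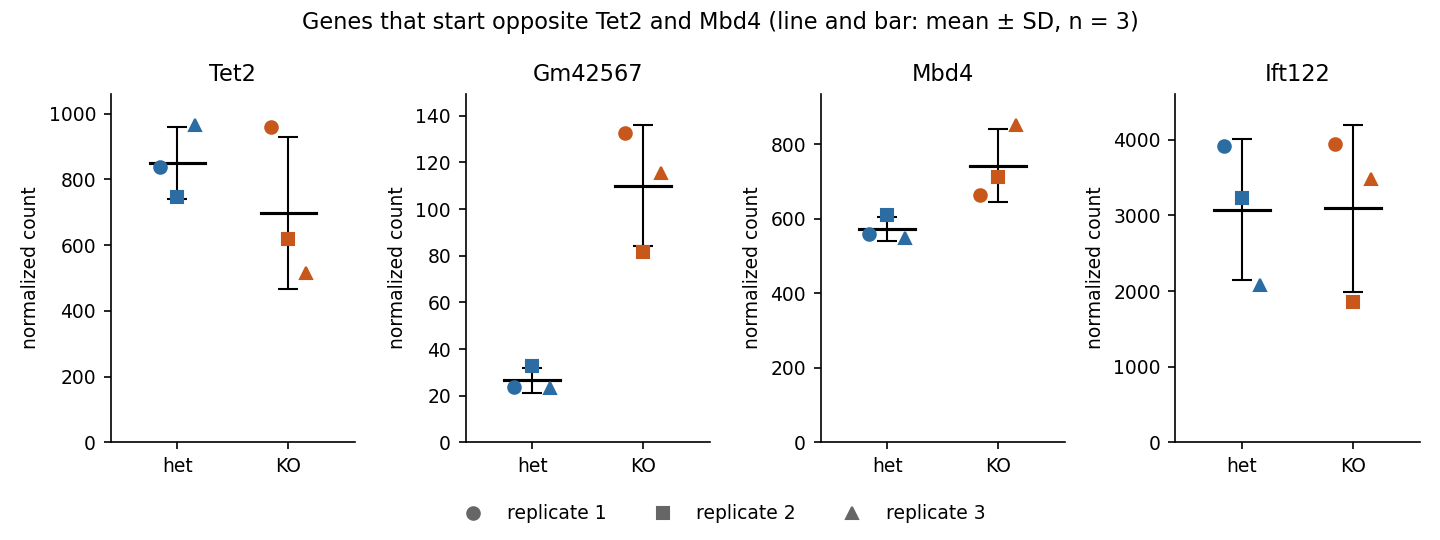
Normalized counts (linear axes from 0) of Tet2, Mbd4 and the genes that start opposite them, by library, with the mean and ± SD (n = 3). Gm42567 lies at 81.6 or above in all KO libraries and at 32.8 or below in all het libraries, while Tet2 and Ift122 overlap.

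The TE table gave a second reading of the same loci. It lists 53 copies within the spans of the 6 genes, of which Tet3 holds 17, Tet2 16, Tet1 11, Apobec1 5, Tdg 4 and Mbd4 0. Each of these listed copies had 10 or more reads over the 6 libraries, so copies with fewer reads may not be listed. Only 5 of the 53 reached a mean of 10 and were tested. Limma called 0 of these 5, against 16.3% of the 49781 copies tested, edgeR and DESeq2 called 0 against 13.7% and 17.3%, and 1 had an unadjusted p under 0.05, against 25.6%. That one was a 67-base copy in a Tet1 exon, on the opposite strand (chr10:62879020-62879086), with 30.6, 25.8 and 44.1 normalized counts in het and 18.1, 19.4 and 0.855 in KO (log2 fold change -1.91, SE 0.87, limma adjusted p = 0.195). In Tdg, an exonic copy at chr10:82648523-82648606 had 93.9, 92.0 and 51.8 against 69.6, 49.5 and 51.3 (log2 fold change -0.44, limma adjusted p = 0.601). Of the 5 tested copies, 4 had a log2 fold change below 0. The exception was an intronic Tet1 copy (chr10:62889541-62889679), at 0.2997 (SE 0.921, limma adjusted p = 0.899). An intronic Tet2 copy (chr3:133524947-133525335) had -0.77 (SE 0.699, limma adjusted p = 0.588).

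One more copy reached over the edge of a member, across the Apobec1 start, and it was lower in KO. It spans 1001 bases of the minus strand (chr6:122601858-122602858), with 587 inside Apobec1 and 414 beyond its start, and 6 of the 9 annotated Apobec1 transcripts start within it. It was described after its values were seen. In the TE table the het libraries had 60.1, 78.5 and 40.3 normalized counts and the KO libraries 25.8, 8.51 and 12.8, so no library overlapped the other group. The means were 59.6 ± 19.14 and 15.7 ± 8.97 (SD, n = 3), from 42 to 70 reads per het library and 11 to 27 per KO library. The copy had a log2 fold change of -1.94 (SE 0.54, 95% interval -3.13 to -0.76), with an adjusted p of 0.0289 by limma, 0.0369 by edgeR and 0.0064 by DESeq2. Limma called 0.735% of the tested copies lower in KO and 15.6% higher, and 7.58% of them had every KO library below every het library.

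The call depended on the libraries used. The limma adjusted p was above 0.05 without het replicate 1 (0.0927), het replicate 2 (0.128), KO replicate 2 (0.0862) or KO replicate 3 (0.0771), with no filter on low values (0.0780) and with the replicate block (0.0512). The log2 fold change in those leave-one-out fits was -1.91, -1.72, -1.61 and -1.88, and it was the same as before with no filter and with the block. With het replicate 3 and KO replicate 2 left out together, the limma adjusted p was 0.0391 (log2 fold change -1.86). The scaling of the TE table also entered the fold. Its size factor was at least 1.048 in each KO library and at most 1.043 in each het library. Dividing by it therefore lowers KO values relative to het values. With the TE reads scaled by the gene size factors, the limma adjusted p was 0.0478 and the log2 fold change was smaller, at -1.63.

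The copy was also set against the gene count of Apobec1, which overlapped between the groups. Per 100 Apobec1 gene reads the copy had 38.8, 40.9 and 46.7 reads in het and 20.8, 10.9 and 9.04 in KO. The means were 42.1 ± 4.08 and 13.6 ± 6.31 (SD, n = 3), and the groups did not overlap by library. The exact two-sided permutation p was 0.1, the smallest that 3 against 3 allows. Because the copy was described after its values were seen, the ratio is no separate test of it. The copy covers 188 exonic bases of Apobec1, and whether its reads were also counted for the gene is not given in the sources used here. An intronic copy that follows it (chr6:122601498-122601821) had 11.6, 23.6 and 17.3 normalized counts against 16.2, 0.774 and 1.71; it was tested only because of its het values, so no fold is given.

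**Figure D4:**
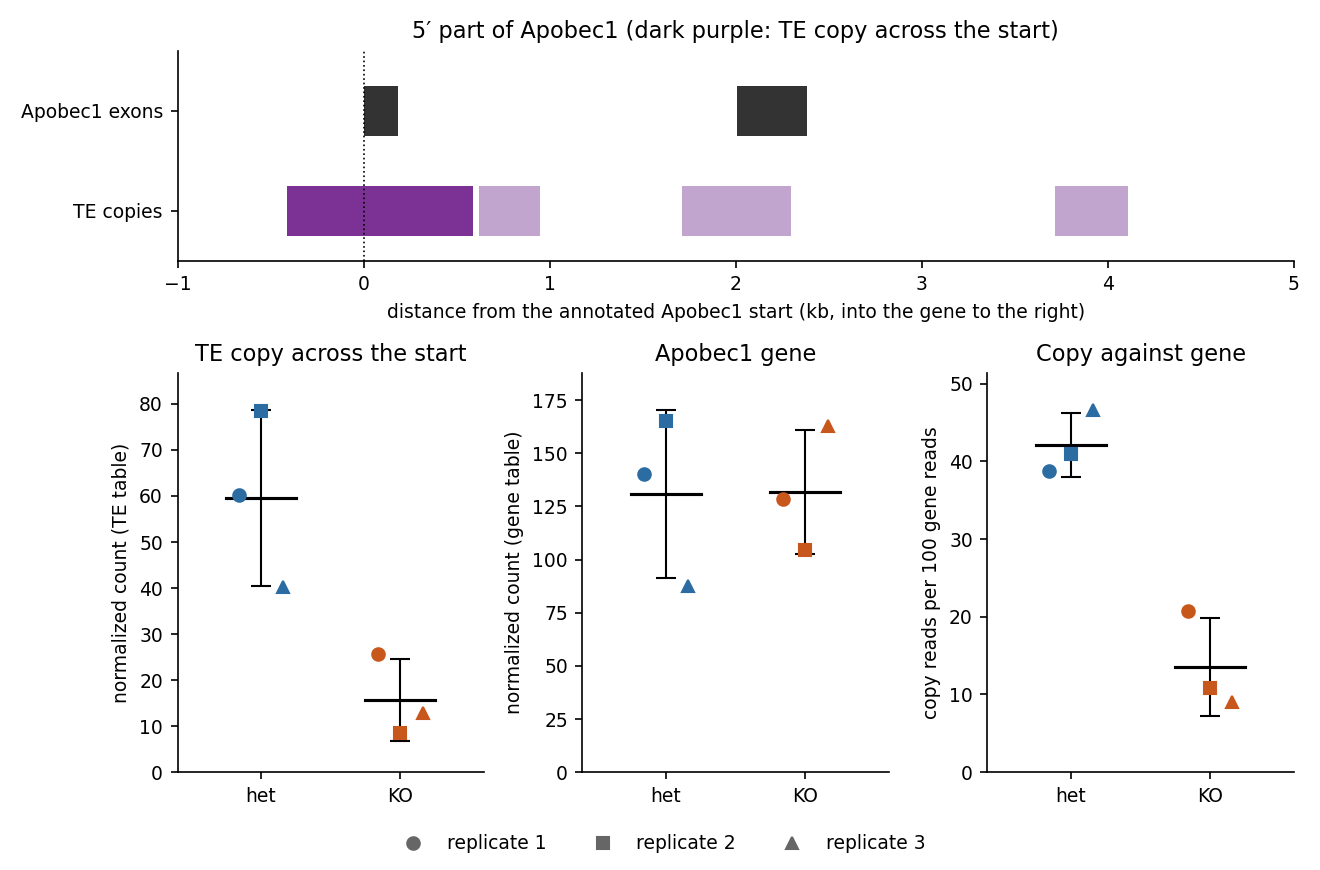
Top: Apobec1 exons and TE copies by distance in kb from the annotated start, with the copy across the start in dark purple. Bottom: normalized count of that copy, normalized count of Apobec1, and copy reads per 100 gene reads, by library with mean and ± SD (n = 3); the groups separate for the copy (40.3 or above in het, 25.8 or below in KO) and for the ratio, and overlap for the gene.

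Reads from intronic copies within Tet3 were lowest in het replicate 3, where its gene count was among the highest. At the gene size factors they came to 75.3, 56.0 and 12.7 in het and 66.3, 47.5 and 69.6 in KO. Het replicate 3 stood apart with 13 such reads. KO replicate 2, the next lowest, had 46 reads, not far from the 58 of het replicate 2. In Tet1 introns het replicate 3 was lowest too, at 12.7 against 41.3 to 80.2 in the others. A single copy gave 154 of the 314 reads in Tet1 introns over the 6 libraries. The other genes did not share the low value of het replicate 3. In Tdg introns it was the highest, at 20.5 against 2.86 to 13.7, with 17 of its 21 reads from a single copy. In Tet2 het replicate 3 was the highest of the het libraries, at 71.2, and in Apobec1, at 25.4, it was below het replicate 2 alone. Over all 142837 intronic copies, het replicate 3 was not low, with 3.92 reads per 100 gene reads against 2.65 to 5.23 in the other libraries.

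Base excision repair was looked at through a list of 24 other genes, all tested, which includes further DNA glycosylases such as Ung and Ogg1. Limma, edgeR and DESeq2 each called 0 of 24, against 0.473%, 0.496% and 1.79% of all tested genes, and 1 had an unadjusted limma p under 0.05, against 6.86%. These shares are the background of all the lists that follow. Log2 fold changes were above 0 for 15 and below 0 for 9, with a median of 0.08, against -0.02 over all tested genes. Xrcc1, the scaffold of single-strand break repair, had 3275, 3198 and 3617 normalized counts in het and 2815, 2627 and 1654 in KO. Every KO library was lower, with a log2 fold change of -0.54 (SE 0.24, limma adjusted p = 0.720). Aptx, which repairs failed ligation ends, followed at 0.47 (limma adjusted p = 0.818).

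A list of 10 genes held other deaminases, the Gadd45 genes, the APOBEC1 cofactors A1cf and Rbm47 and the GADD45-binding Gadd45gip1, and 9 of these had values used here, with 4 above 0, 5 below and a median of -0.01. The calls were 0 of 9 by limma, edgeR and DESeq2, with 1 unadjusted limma p under 0.05. Apobec3, the retroviral restriction deaminase, had 195.5, 192 and 257 normalized counts in het. All KO libraries were higher, at 341, 299.6 and 391 (log2 fold change 0.68, SE 0.27, limma adjusted p = 0.653). Gadd45g, a stress response gene proposed as a demethylation adaptor, had a log2 fold change of -0.51 (limma adjusted p = 0.875).

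The 24 TET partners and cofactor genes split evenly, 12 above and 12 below 0, with a median of 0.00. They gave 0 calls by limma, edgeR and DESeq2, and 3 of 24 had an unadjusted limma p under 0.05, against 6.86% of all tested genes. Idh1, which makes the TET cosubstrate alpha-ketoglutarate in the cytosol, had 7421, 6540 and 5389 normalized counts in het and 4680, 3074 and 3788 in KO. No KO library reached the lowest het library (log2 fold change -0.75, SE 0.23, limma adjusted p = 0.348). Lin28a, an RNA-binding protein of early germ cells, went the other way, with 702, 1031 and 616 against 1253, 1594 and 1183 (log2 fold change 0.80, SE 0.26, limma adjusted p = 0.442). The third was Cxxc4, a CXXC protein known to bind TET2, at 0.72 (limma adjusted p = 0.580), named here after its values were seen.

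A further list held 20 germline genes, of a kind known for promoters that are methylated in somatic cells; methylation itself was not measured here. They had 11 log2 fold changes above 0 and 9 below, a median of 0.01, 0 calls by limma, edgeR and DESeq2, and 1 unadjusted limma p under 0.05. That one was Rpl10l, the testis copy of a ribosomal protein gene, which was higher in every KO library (log2 fold change 0.50, SE 0.19, limma adjusted p = 0.584). Mael, a piRNA pathway gene, was next at -0.33 (limma adjusted p = 0.863). The 6 DNA methylation genes had 1 value above 0 and 5 below, a median of -0.27, 0 calls by limma, edgeR and DESeq2 and 0 unadjusted limma p under 0.05. Dnmt3a, at 0.21 (limma adjusted p = 0.894), had every KO library above every het library, and Dnmt3l had -0.25 (limma adjusted p = 0.895).

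**Figure D5:**
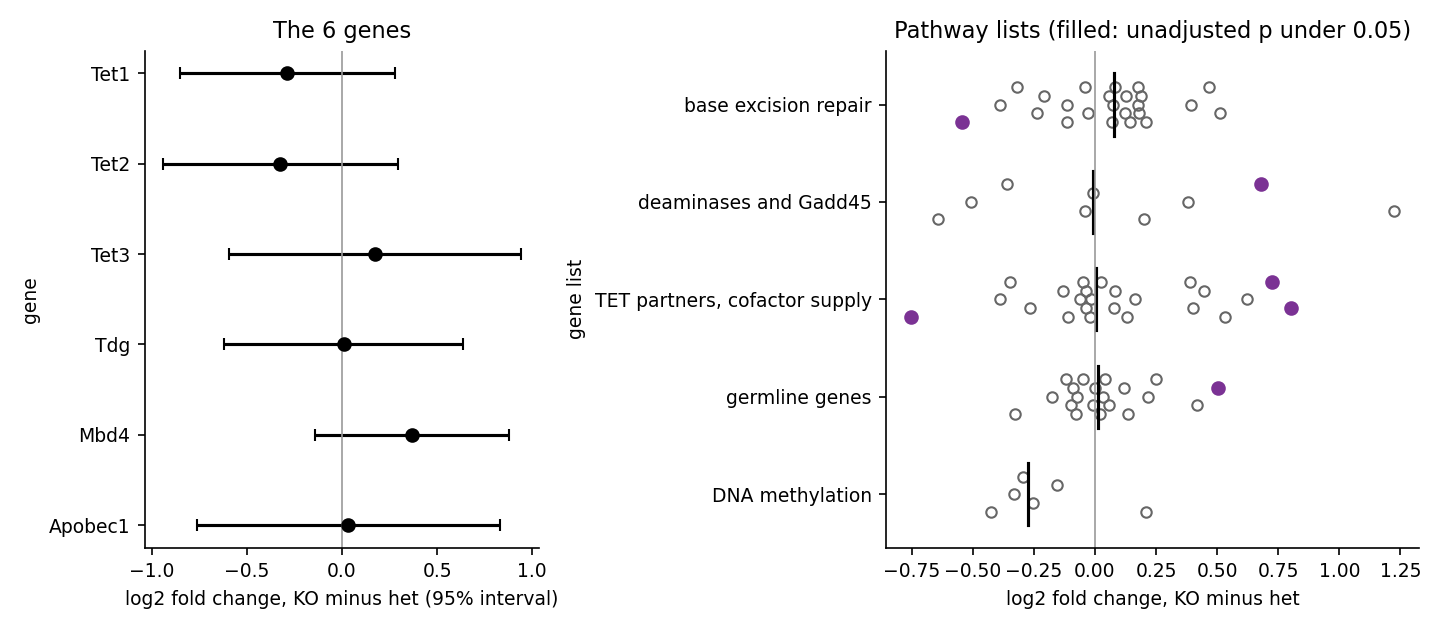
Left: log2 fold change (KO minus het) of the 6 genes with 95% intervals from limma, all of which cross 0. Right: log2 fold changes of the tested genes of the 5 pathway lists (points; filled where the unadjusted limma p was under 0.05) with the list median as a bar, from -0.27 for the DNA methylation genes to 0.08 for base excision repair.

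Markers of other testis cells differed between the libraries. All 7 Sertoli cell markers had log2 fold changes below 0 (median -0.69), with summed normalized counts of 17536 to 37259 in het and 12581 to 18099 in KO libraries. All 5 Leydig cell markers were below 0 too, with sums of 776 to 24921 in het and 510 to 1075 in KO, highest in het replicate 3. Endothelial markers had 4 of 5 above 0, with sums of 2275 to 2996 in het and 3511 to 4182 in KO. Blood and macrophage markers had 3 of 8 above 0 (908 to 1595 and 867 to 2096), and peritubular and stromal markers 4 of 5 (3594 to 3858 and 3702 to 5075). Germ cell markers had 10 of 12 above 0 (81823 to 114910 and 95832 to 120897). Of these lists limma and edgeR called 0 genes, DESeq2 called 1 Sertoli and 1 endothelial marker, 4 had an unadjusted limma p under 0.05, and no marker was at 0 in all libraries. In such bulk samples fewer cells of a type and less RNA per cell cannot be told apart, and the part of other cells in the values of the 6 genes was not tested.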

How the data were processed

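The labels list RNA-seq of Mvh-Venus male germ cells made with a SMART-seq low-input cDNA kit and a TruSeq kit. The submitters' processing notes name bcl2fastq 2.20, cutadapt 1.18, HISAT2 2.1.0, featureCounts 1.5.2 and DESeq2 1.26.0 and the builds mm10 and GRCm38, with no settings. Both deposited tables hold a signal: read counts that the authors had scaled by DESeq2 size factors, as the gene table's name and the steps in both tables' values show. All values in every column were whole multiples of one step within 0.01 of a read, which gave back the reads. For KO replicate 1 the gene step is close to 1, so an automatic check could not be applied.

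The gene table was matched to GENCODE M21 (35560 of 35666 genes), which gave symbols, positions and exon lengths. Groups were taken from the sample labels. Features averaging 10 or more were fitted in limma 3.58.1 (R 4.3.3; two-sided, eBayes with an intensity trend) as log2(value + 1), which understates the change of low features, without covariates. Single values were compared by exact permutation (scipy 1.17.1). Alternatives were pseudocounts of 0.1 and 10, other filters, no trend, quantile normalization, a replicate block, each library left out, and edgeR 4.0.16 and DESeq2 1.42.0 on the recovered reads. Overlaps were found with bedtools 2.31.1 and near-identical transcripts with BLAST 2.17.0. The limma and edgeR fits were tested on simulated gene counts, and the other steps were not.

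The named genes are all 6 members, the 2 genes of each pathway list with the smallest p, the 2 genes most like each member (1 of them is not reported here), and the TE copies with the smallest p or highest mean. Members and lists were chosen with earlier results of these data known.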

Additional observations from a re-analysis of the deposited data

How the results depend on the processing

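The 6 genes stayed uncalled in all 17 alternatives, with adjusted p of 0.557 or more in limma, edgeR and DESeq2 fits, and the 5 pathway lists and the copies within the genes gave 0 calls in each that was run. Tet1, Tet2 and Mbd4 kept their direction, with log2 fold changes of -0.49 to -0.13, -0.58 to -0.13 and 0.27 to 0.44 with one library left out. Tet3 ranged from -0.10 to 0.53, Tdg from -0.27 to 0.19 and Apobec1 from -0.23 to 0.22. Tdg was -0.0399 with edgeR and -0.0382 with DESeq2, Apobec1 was -0.000905 after quantile normalization, and with het replicate 3 and KO replicate 2 left out together, chosen after seeing the data, they were -0.216 and -0.0726. The cause was not tested.

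Over all genes, 112 were called higher and 11 lower. The higher count was 70 with a pseudocount of 0.1, 177 with 10, 400 with DESeq2, 66 without het replicate 3 and KO replicate 2, and 15 to 107 with one library left out. The lower count was 5 with a pseudocount of 0.1, 3 without trend, 65 with DESeq2, and 1 to 7 with one library left out. The replicate block gave 64 higher and 5 lower with limma, and 38 and 0 with edgeR. Same-numbered libraries share a number, and the labels name no pairing. Their deviations correlated at 0.138, -0.163 and -0.0438, and not every library correlated best with its own number. These values cannot settle whether libraries were paired, because the deviations within a group depend on each other.

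Gm42567 had an adjusted p of 0.0014 to 0.347 over its alternatives and passed with DESeq2 alone (0.144 with that pair of libraries left out). The copy at the Apobec1 start had 0.0064 to 0.128. The copy had 11 to 70 reads per library and Apobec1 90 to 171, and the tested copies within Tet1, Tet2 and Apobec1, with as few as 1 read in a library, had larger standard errors.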
